A study of Mus musculus with 6 samples.

Results

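Tdrd7, Celf1, Caprin2, Rbm24, Stau1 and Stau2 encode proteins that bind RNA or gather with it in cytoplasmic granules. They were taken by name from the deposited count table, in which all 6 are present among 13024 genes. RNA was sequenced from mouse lenses at E14.5, 10 lenses of 5 embryos to a pool, on a mixed C57BL/6 and FVB background, with 3 control pools and 3 pools labelled Gata3 conditional knockout (CKO). The CKO embryos were Gata3 f/f with a Pax6-Cre transgene, which deletes exon 4 of Gata3 in the ectoderm that forms lens and cornea under an ocular enhancer of Pax6. The control embryos carried floxed Gata3 without Cre, given as f/wt in the study's results and f/f in its methods, and the sample labels call them wild type. Cre and the loss of Gata3 therefore cannot be told apart in these pools.

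Lens fibre cells degrade their nuclei as they mature, and any protein made from then on must come from mRNA that is already in the cytoplasm. Proteins that store, transport, splice or degrade mRNA are for this reason of long-standing interest in lens biology. Tdrd7 encodes a Tudor domain protein of RNA granules, and its loss causes cataract in mice and people. Celf1 encodes a CUG-binding protein that acts on splicing, decay and translation, Caprin2 a granule protein of the caprin family, and Rbm24 a protein with an RNA recognition motif that stabilises and splices mRNA. Loss of any of these causes defects of the lens or eye in animal models. Stau1 and Stau2 encode Staufen proteins, which bind double-stranded RNA and take part in mRNA transport and decay.

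Libraries held 15157230 to 18811104 counts. Control replicate 2 stood apart from the other pools, with 16.5% of its counts on 16 crystallin genes, against 5.47% to 9.31% in the other 5 pools. Gata3 itself had 202, 386 and 156 counts in the control pools and 910, 1064 and 894 in the pools labelled CKO. These counts were thus higher in the pools labelled CKO. They cover the whole gene and do not show which exons were read, so they can check neither the deletion nor the label. Reads by exon were not analysed here. Every direction given here is that of the pools labelled CKO. Of 12879 genes tested, edgeR's quasi-likelihood fit called 0 (0%) at an adjusted p of 0.05, and for 457 the unadjusted p was under 0.05. DESeq2 called 85 genes and limma voom 0. Means are given ± SD over 3 pools and log2 fold changes with their SE, the standard error. All 6 members passed the filter on low counts, and 0 of the 6 were called by edgeR.

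Caprin2 and Tdrd7 had a lower mean in the pools labelled CKO, at 40.2% and 46.5% of their control means, and they followed the crystallins over the pools. Levels of Celf1 and Rbm24 were high in control replicate 2 and overlapped between the groups. Stau1 and Stau2 were nearly level over all 6 pools. The lowest member count in any pool was 668, for Stau2 in control replicate 2. Its control counts carried a counting error of 3.52% (root mean square over the control pools) against a coefficient of variation of 10.8% between those pools. For Stau2 in CKO (3.23% against 3.55%) and Stau1 in control (2.43% against 2.98%) counting error was close to the spread between pools. For Tdrd7, Celf1, Caprin2 and Rbm24 it was at most 1.98%, against at least 13.4% between pools.

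The 2 members with the lowest log2 fold changes lie on chromosome 4 (Tdrd7, forward strand, 45965334–46034761) and on chromosome 6 (Caprin2, reverse strand, 148842492–148896237). Since they moved together over the pools, the RefSeq sequences of GRCm38.p6 (the assembly of mm10) before their start sites are shown, with that of Cryba4, the gene whose pattern was nearest to Caprin2. Each runs 5′ to 3′ on the strand of its gene and ends at the last base before the start site. Capitals mark matches to letters that GATA factors favour, which are AGATAA and also AGATAG, and with another first base TGATAA and also TGATAG. They also mark the letters TGCTGA of a Maf half-site, searched like the GATA letters on both strands, and the letters TATAAA of a TATA box, searched on the strand of the gene. Tdrd7 is shown at chr4:45965085-45965334, Caprin2 at chr6:148896238-148896487 and Cryba4 at chr5:112252519-112252768.
Tdrd7: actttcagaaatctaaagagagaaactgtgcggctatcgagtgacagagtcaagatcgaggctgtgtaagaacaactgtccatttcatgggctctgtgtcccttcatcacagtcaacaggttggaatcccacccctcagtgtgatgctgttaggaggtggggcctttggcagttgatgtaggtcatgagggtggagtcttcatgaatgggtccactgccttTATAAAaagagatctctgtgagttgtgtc
Caprin2: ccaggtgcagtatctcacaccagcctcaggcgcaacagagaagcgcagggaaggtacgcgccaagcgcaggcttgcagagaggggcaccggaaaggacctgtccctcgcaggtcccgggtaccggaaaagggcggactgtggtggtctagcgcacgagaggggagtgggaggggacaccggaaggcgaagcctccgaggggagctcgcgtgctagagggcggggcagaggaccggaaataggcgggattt
Cryba4: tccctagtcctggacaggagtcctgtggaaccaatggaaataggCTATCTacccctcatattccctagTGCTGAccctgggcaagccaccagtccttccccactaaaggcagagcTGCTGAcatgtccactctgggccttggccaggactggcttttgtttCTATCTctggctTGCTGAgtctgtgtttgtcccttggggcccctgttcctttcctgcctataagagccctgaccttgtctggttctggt

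The Tdrd7 sequence held TATAAA 29 bases before its start site, letters that 8.32% of 32851 RefSeq promoter windows hold. The Caprin2 sequence held none of the letters. Cryba4 had 3 matches to TGCTGA and 2 to the reverse of AGATAG, which did not overlap each other. Among the other genes nearest in pattern to Tdrd7 or Caprin2, Cryga and Cela1 held matches to the GATA letters and to TGCTGA. Crygn and Cryba2 held a match to TGCTGA on the other strand and none to the GATA letters. RefSeq gave 8 windows of 300 bases (250 before and 50 after a start) for 5 of the members, including 3 for Tdrd7 and 2 for Stau1. Stau2 had no entry in the table. In 0 of the 8 windows was there a match to the GATA letters, against 29.8% of all windows. TGCTGA stood in 1 of the 8, the second window of Tdrd7, against 19.5% of all windows, and the heat shock core GAANNTTC in 0 of the 8, against 7.86%. These matches describe letters in short windows and are not binding sites.

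Caprin2 was measured at 658, 1279.6 and 437 CPM (counts as a share of the library, after TMM scaling of library sizes) in control replicates 1, 2 and 3. In the pools labelled CKO it was at 391, 311 and 251 CPM. All 3 of these lay below the lowest control pool, and Caprin2 was the only member whose groups did not overlap in this direction, as 4.69% of all genes tested did. The means were 791 ± 437 CPM in control and 318 ± 70.0 in CKO, which is -1.32 on the log2 scale (SE 0.40, 95% interval -2.27 to -0.36). Its unadjusted p-value in edgeR's quasi-likelihood test was 0.0141 and the adjusted one 0.997, and an exact two-sided permutation test gave p = 0.1, the smallest that 3 pools against 3 allow. DESeq2's Wald test called Caprin2 (adjusted p = 0.0393), as it called 0.435% of the genes tested in this direction. Without control replicate 2 the log2 fold change was -0.78 (adjusted p = 0.711 in edgeR), and over the alternatives the adjusted p was 0.0393 to 0.999997.

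Tdrd7 was at 672, 1359 and 453 CPM in the control pools. The pools labelled CKO held 485, 365 and 306 CPM. CKO replicate 1 was above control replicate 3, so the groups overlapped. The means were 828 ± 473 and 385 ± 91.0 CPM. CKO differed from control by -1.10 on the log2 scale (SE 0.41, 95% interval -2.08 to -0.13). The unadjusted p-value was 0.0323 in edgeR's quasi-likelihood test and the adjusted one 0.9998, and the exact permutation test gave p = 0.2. Tdrd7 and Caprin2 were thus the 2 of 6 members with an unadjusted p-value under 0.05 and a lower level, which 2.24% of all genes had. The size for Tdrd7 rested on control replicate 2, without which it was -0.54 (unadjusted p = 0.0972 in edgeR).

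**Figure D1:**
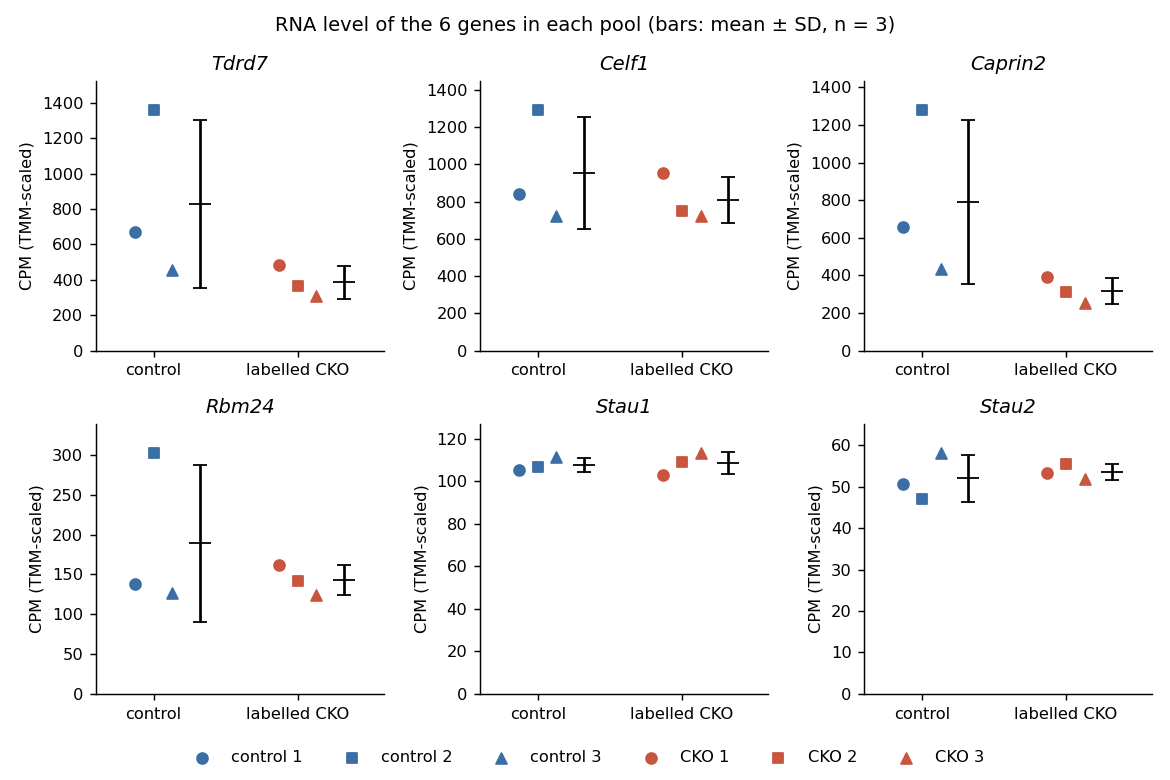
TMM-scaled CPM of each gene in each pool (y axis, from 0), control in blue and labelled CKO in red, with a marker for each replicate number and black bars for mean ± SD of 3 pools. Control replicate 2 is the highest point for Tdrd7, Celf1, Caprin2 and Rbm24, and Stau1 lies between 103 and 113 CPM in all 6 pools.

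Celf1, on the forward strand of chromosome 2 (90940382–91019497), had the highest mean CPM of the 6 genes. Its values were 842, 1291 and 722 CPM in control and 952, 749 and 723 CPM in the pools labelled CKO. Apart from control replicate 2, which was highest, the pools of both groups lay in overlapping ranges. The log2 fold change was -0.24 (SE 0.23, 95% interval -0.80 to 0.32, adjusted p = 0.9998 in edgeR's quasi-likelihood test) and turned to 0.06 without control replicate 2. The interval does not exclude a level lower by 0.80 on the log2 scale.

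Rbm24 (chromosome 13, 46418434–46431095, forward strand) was measured at 138, 302 and 126 CPM in control. The pools labelled CKO held 162, 142 and 124 CPM. Its level in control replicate 2 was 2.29-fold the mean of the other control pools, and the other 5 pools lay between 124 and 162 CPM. The log2 fold change was -0.40 (SE 0.34, 95% interval -1.22 to 0.41, adjusted p = 0.9998 in edgeR's quasi-likelihood test), and 0.12 without control replicate 2.

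Both Staufen genes are read from the reverse strand, Stau1 on chromosome 2 (166947549–166996299) and Stau2 on chromosome 1 (16228674–16520112). Stau1 was at 105, 106 and 111 CPM in control and at 103, 109 and 113 CPM in the pools labelled CKO. Its log2 CPM spanned 0.14 over the 6 pools, a smaller span than in all but 3.35% of the genes tested. The log2 fold change of Stau1 was 0.01 (SE 0.0684, 95% interval -0.15 to 0.17).

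Stau2 was at 50.8, 47.1 and 58.1 CPM in control and at 53.2, 55.5 and 51.8 CPM in the pools labelled CKO, a log2 fold change of 0.04 (SE 0.0980, 95% interval -0.19 to 0.27). Both Staufen genes had an adjusted p = 0.9998 in edgeR's quasi-likelihood test. The wider of the intervals, that of Stau2, ends at 0.27. The ratio of Stau1 to Stau2 counts was 1.92 to 2.26 over the control pools and 1.93 to 2.19 over the pools labelled CKO. In the GENCODE annotation 2 antisense genes, Gm28095 and Gm7568, lie within Stau2 and share 0 bases with its exons, and the other 5 members overlap no other gene.

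**Figure D2:**
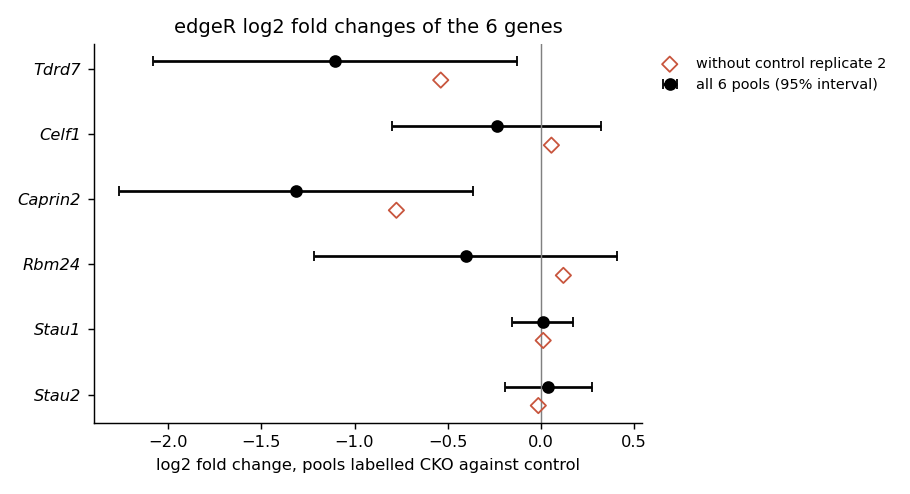
edgeR log2 fold changes (x axis) of the pools labelled CKO against control, black points with 95% intervals for all 6 pools and open diamonds for the fit without control replicate 2. The intervals of Tdrd7 and Caprin2 lie below 0, and those of the other 4 genes cross it. Without control replicate 2 the values of Celf1 and Rbm24 lie above 0.

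Levels were compared between genes per kilobase of merged GENCODE exons, which understates genes with long or rarely used exons. In control, Tdrd7 was highest with 209 ± 119 CPM per kb, then Celf1 with 113 ± 35.5. Their ranges of mean ± SD overlapped, but within each control pool Tdrd7 was above Celf1, with 170, 343 and 114 CPM per kb against 99.6, 153 and 85.5. Caprin2 with 55.97 ± 30.9 and Rbm24 with 54.1 ± 28.2 had overlapping ranges, and Caprin2 was the higher in 2 of the 3 control pools. Stau1 had 17.7 ± 0.529 CPM per kb and Stau2 7.70 ± 0.831, below all others. In the pools labelled CKO, Tdrd7 (97.3 ± 23.0 CPM per kb) and Celf1 (95.7 ± 14.8) had overlapping ranges, and Tdrd7 was the higher in 2 of the 3 pools. Rbm24 (40.9 ± 5.46) was then above Caprin2 (22.5 ± 4.95) in each pool. This order rests on length, since the merged exons of Caprin2 come to 14.1 kb, against 3.49 kb for Rbm24. In CPM Caprin2 was above Rbm24 in each of these pools. Stau1 was at 17.9 ± 0.853, within the range of Caprin2, and Stau2 at 7.93 ± 0.281.

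Ratios between members within a pool do not depend on how libraries are scaled. Over the 15 pairs of members, 7 ratios did not overlap between the groups, as was so for 9.41% of the pairs of all 12871 genes with counts in every pool. All 7 held Tdrd7 or Caprin2, so they were not independent, and each gave p = 0.1 in the exact permutation test (0.214 after adjustment over the 15 pairs). Tdrd7 counts per Caprin2 count were 1.02, 1.06 and 1.04 in control and 1.24, 1.17 and 1.22 in the pools labelled CKO. The ratio was thus near 1 in each control pool, although the CPM of both genes differed widely between those pools, and it was higher in all 3 pools labelled CKO. Celf1 counts per Caprin2 count were 1.28, 1.01 and 1.65 in control and 2.43, 2.41 and 2.88 in CKO. Tdrd7 per Celf1 was 0.799, 1.05 and 0.627 in control and 0.509, 0.487 and 0.423 in CKO. Celf1 per Rbm24 overlapped, with 4.28 to 6.09 in control and 5.27 to 5.87 in CKO.

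Tdrd7 and Caprin2 held a steady proportion to the crystallins in control lenses. Tdrd7 had 0.721, 0.717 and 0.706 counts per 100 crystallin counts in control replicates 1, 2 and 3, a coefficient of variation of 1.102%, against 57.1% for its CPM. Of 12852 genes that are neither crystallins nor fibre markers, 9 varied less on this scale among the control pools. In the pools labelled CKO the ratio was 0.679, 0.640 and 0.588, below all control pools. Caprin2 had 0.706, 0.676 and 0.680 in control and 0.547, 0.545 and 0.483 in CKO, and was also lower in each. Its coefficient of variation in control was 2.35%, and 14 genes varied less. Of all these genes 0.405% lay below control in this way.

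Celf1 and Rbm24 stood on the other side of this scale. Celf1 had 0.902, 0.682 and 1.13 counts per 100 crystallin counts in control and 1.33, 1.31 and 1.39 in CKO. Rbm24 had 0.148, 0.160 and 0.196 in control and 0.227, 0.249 and 0.238 in CKO. Both were above control in every pool, as were 18.8% of all genes, and 15 of the 16 crystallins had a lower log2 fold change. Stau1 and Stau2 overlapped. For each of the 4 genes whose groups did not overlap the exact permutation test gave p = 0.1. In edgeR with library sizes replaced by crystallin counts, which moved the median of all genes to 0.68, the log2 fold changes were 0.57 for Celf1, 0.50 for Rbm24, 0.69 for Stau1, 0.68 for Stau2, -0.17 for Tdrd7 and -0.39 for Caprin2. The 2 Staufen genes thus lay at the median of all genes and the other 4 below it. None of the 6 was called by edgeR on this scale, on which 19 of the 12879 genes tested were called.

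**Figure D3:**
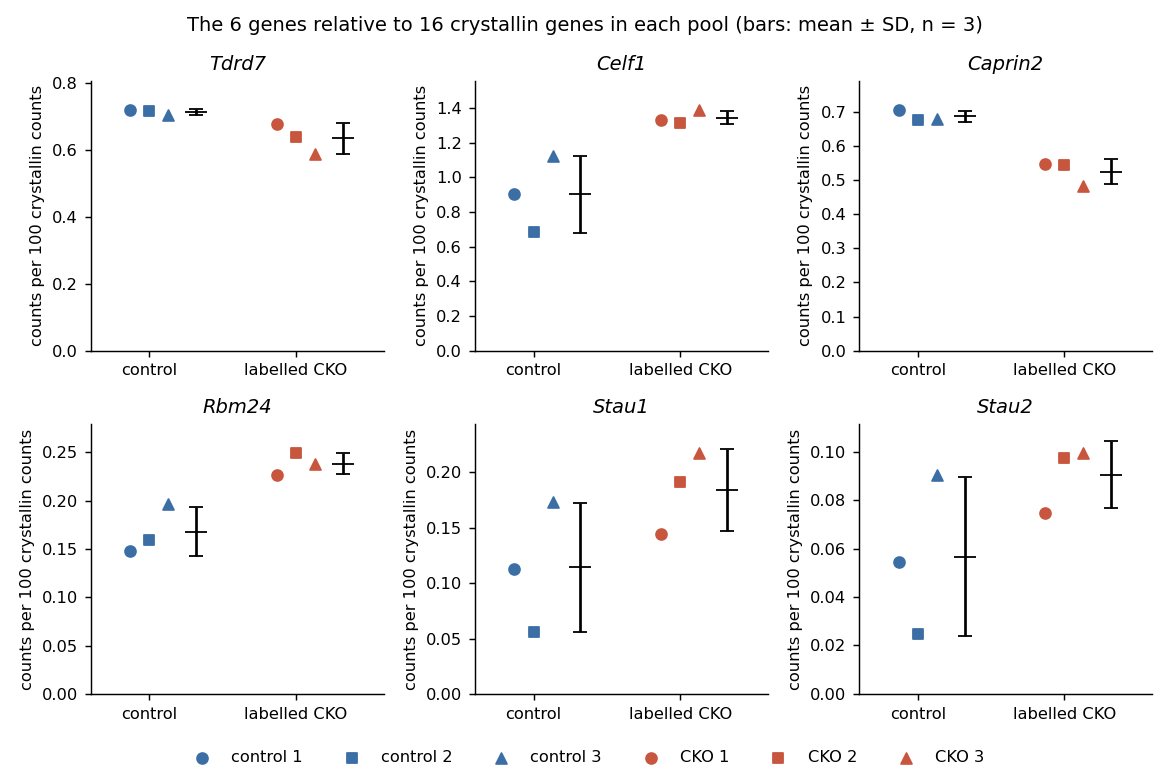
Counts of each gene per 100 counts of 16 crystallin genes (y axis, from 0) in each pool, control in blue and labelled CKO in red, with black bars for mean ± SD of 3 pools. Tdrd7 in control lies between 0.706 and 0.721 and above all 3 pools labelled CKO, while Celf1 and Rbm24 in CKO lie above control.

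Fibre markers other than crystallins gave the same order for Tdrd7 and Caprin2. Against the summed counts of 11 such genes, Tdrd7 had 6.07, 5.89 and 5.76 counts per 100 in control and 4.42, 4.31 and 4.14 in CKO. Caprin2 had 5.95, 5.55 and 5.55 in control and 3.56, 3.67 and 3.40 in CKO. Of all genes, 0.615% lay below control in every pool on this scale. The 4 other members overlapped.

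The 20 fibre markers of the table had a lower log2 fold change in 20 of 20, with a median of -1.26. Their summed level was 57281, 118475 and 39469.9 CPM in control and 41341, 33037 and 28638 CPM in the pools labelled CKO. Markers of lens epithelium and blood were also high in control replicate 2. Lens epithelium markers summed to 67776 CPM there, against 24298 to 35670.0 CPM in the other control pools and 26847 to 34832 in CKO. Of these markers, 6 of 9 had a lower log2 fold change. The list includes the crystallin genes Cryaa and Cryab, whose share of the sum was not separated, so the sum does not measure epithelial cells alone. Blood markers summed to 1321 CPM there, against 313 to 553 in the other 5 pools, with 4 of 4 tested lower and Hba-a2, Hbb-bt and Hbb-bs at 0 in at least 1 pool. Macrophage markers (69.2 to 128 CPM in control, 57.7 to 81.7 in CKO) were lower in 7 of 7 and vessel markers (272 to 344 and 238 to 302) in 7 of 8. Mesenchyme markers stood apart in control replicate 1 (2267 CPM) and CKO replicate 2 (4095 CPM), against 255 to 531 CPM in the other 4 pools, and pigment cell markers in the same pools (341 CPM in each, against 69.8 to 98.6). Retina markers summed to 1441, 889 and 2021 CPM in control replicates 1, 2 and 3 and to 1352 to 1825 in CKO. Neuron markers summed to 1801, 883 and 2808 CPM in these control pools and to 1770.2 to 2393 in CKO. Among the control pools this order was the reverse of that of the crystallin share of counts (9.31%, 16.5% and 6.63%). Surface ectoderm markers summed to 44.4 to 106 and 58.9 to 161 CPM. The log2 fold change was higher in 12 of 14 retina, 12 of 12 neuron and 10 of 11 mesenchyme markers. It was higher in 4 of 6 pigment cell and 4 of 7 surface ectoderm markers. The summed levels of all these lists, fibre markers included, overlapped between the groups. Apart from the blood genes named, no marker was at 0 in any pool. In pooled lenses, fewer fibre cells, less RNA per fibre cell and a larger share of other tissue cannot be told apart. The part of these markers in the values of Tdrd7 and Caprin2 was not tested.

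The genes with the pattern over pools most like Caprin2 were the crystallins Cryba4, Cryga and Cryba2. Likeness was the root mean square difference of centred log2 CPM over the 6 pools, searched among 10421 genes with a mean of at least 10 CPM. It was 0.0341 for Cryba4, 0.0591 for Cryga and 0.0804 for Cryba2, where 0 is the same pattern. For Tdrd7 the nearest were Crygn (0.0693) and Cryba2 (0.0703), followed by Cela1 (0.0747), which encodes an elastase. Caprin2 itself was at 0.113 from Tdrd7. For Rbm24 the nearest were Maf (0.0539), a transcription factor of fibre cells, Fgfr3 (0.0806), a receptor for fibroblast growth factors, and the histone gene Hist1h2bc (0.0908). The log2 CPM of the other 3 members spanned less than 1, and no nearest genes were sought for them.

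**Figure D4:**
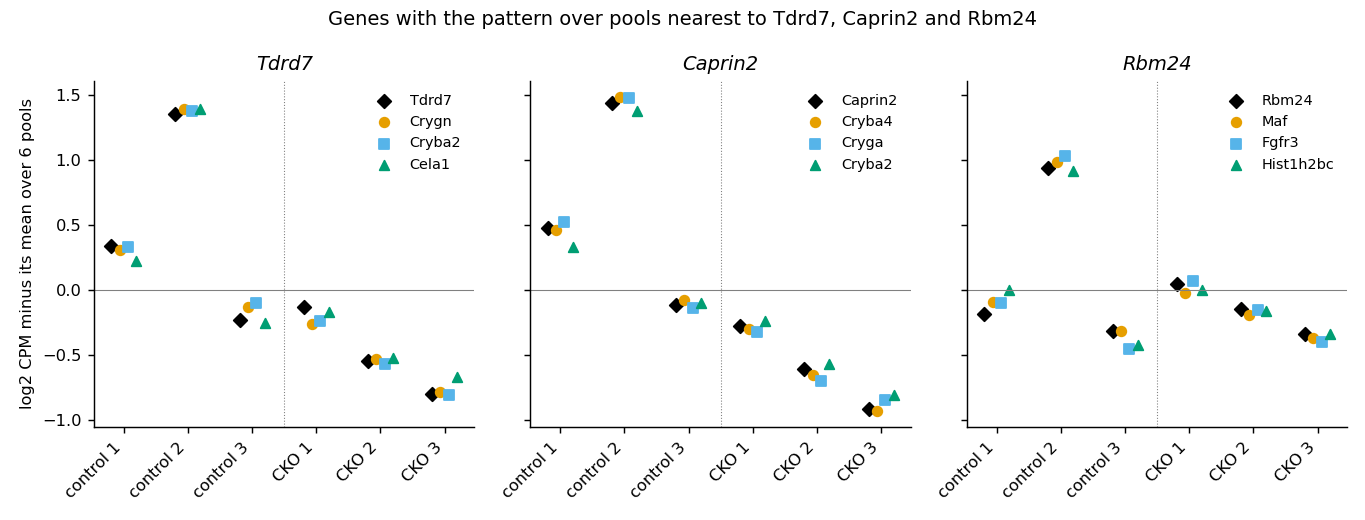
Log2 CPM of Tdrd7, Caprin2 and Rbm24 (black diamonds), each minus its mean over 6 pools (y axis), with the 3 genes of the nearest pattern in colour, by pool (x axis). The genes of a panel were chosen for their likeness over these pools and so lie close together. All are highest in control replicate 2.

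Paralogues of the members, and genes that share no more than a domain with them, were looked at from a list of 17 genes. For short all are called paralogues here, and 14 were in the table. In 0 of 14 was the adjusted or the unadjusted p-value under 0.05 in edgeR, against 0 and 457 of all 12879 genes tested. The median log2 fold change was 0.03, against 0.0019 over all genes tested. It was between -0.063 and 0.14 under the alternatives, those scaled to lens genes left aside here and for the lists that follow. Caprin1, which encodes the stress granule partner of G3bp1, was at 862 ± 28.4 CPM in control and 851 ± 21.3 in CKO. Caprin2 counts per Caprin1 count were 0.760, 1.44 and 0.525 in control and 0.447, 0.373 and 0.297 in CKO. Caprin1 had a log2 fold change of -0.018 (SE 0.0821), whose sign changed when libraries were scaled by their totals.

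The CELF genes other than Celf1 were lowest in control replicate 2, where Celf1 was highest. Celf2, a splicing regulator, was at 258, 165 and 359.7 CPM in control and 277, 260.3 and 295 CPM in CKO. Neuron markers were also lowest in control replicate 2 and highest in control replicate 3, at 1801, 883 and 2808 CPM in the control pools, and their part in the CELF values was not tested. Celf3, Celf4, Celf5 and Celf6 had log2 fold changes of 0.10 to 0.27, and all of Celf2 to Celf6 turned below 0 without control replicate 2. Per kilobase of exon, Celf1 (113 CPM per kb in control) was far above Celf3 (14.4 ± 7.17) and Celf2 (10.1 ± 3.77). The merged exons of Celf2 come to 25.9 kb, against 8.45 kb for Celf1, which widens the gap. In CPM the control means were 952 ± 300 for Celf1 and 261 ± 97.5 for Celf2.

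Rbm38, the closest relative of Rbm24, was at 38.5, 60.7 and 37.5 CPM in control and at 34.9, 35.0 and 36.6 CPM in CKO. The 3 CKO pools lay just below the lowest control pool, as was so for 4.69% of all genes tested. The log2 fold change of Rbm38 was -0.36 (SE 0.19, adjusted p = 0.9998 in edgeR's quasi-likelihood test), and -0.088 without control replicate 2. Rbm24 counts per Rbm38 count overlapped, with means of 3.97 ± 0.874 in control and 4.03 ± 0.629 in CKO. Rbm20, a splicing factor of muscle, was low, at 7.70 ± 1.21 and 7.66 ± 2.41 CPM.

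Among the Tudor genes, Tdrd3 had 49.9 ± 3.98 CPM in control and 46.2 ± 4.55 in CKO. Tdrkh (78.8 ± 6.79 and 74.3 ± 6.93 CPM) and Tdrd9 (6.97 ± 3.70 and 4.03 ± 1.37 CPM) are best known from the piRNA pathway of germ cells. Snd1 (175 ± 13.1 and 178 ± 8.08 CPM), Smn1 (31.6 ± 1.20 and 32.3 ± 1.65 CPM) and Smndc1 (55.2 ± 2.12 and 57.9 ± 2.09 CPM), which also carry a Tudor domain, overlapped between the groups. Per kilobase of exon in control, Tdrd7 was at 209 CPM per kb and these 6 genes between 1.29 and 22.3.

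**Figure D5:**
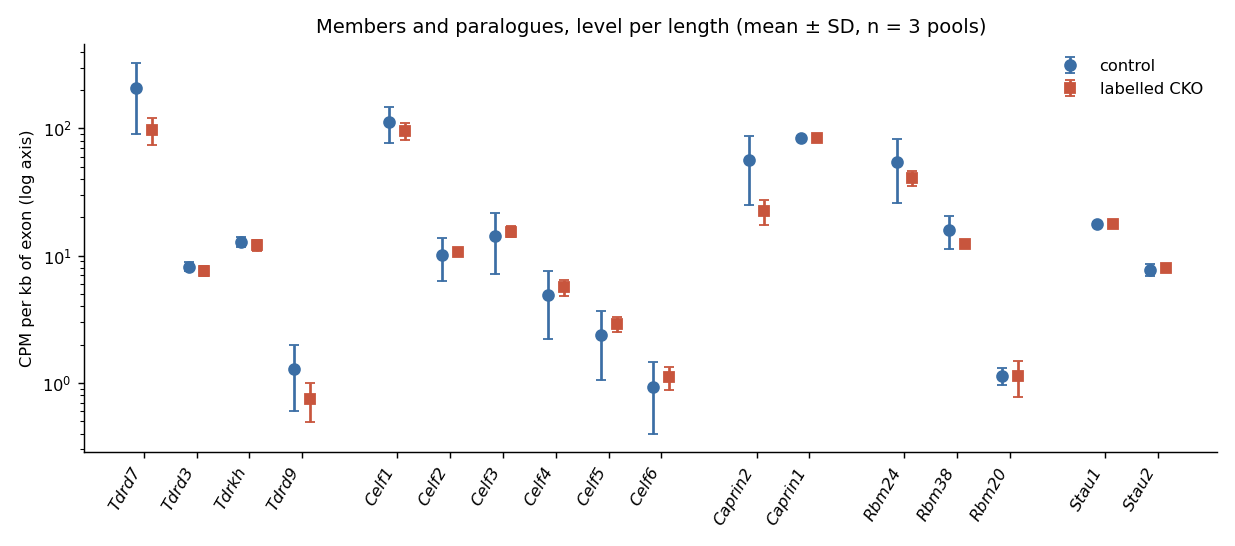
Level per length (CPM per kb of merged exons, log axis) of members and paralogues, as mean ± SD of 3 pools, control in blue and labelled CKO in red. The means of Tdrd7, Celf1 and Rbm24 lie above those of their paralogues. The mean of Caprin1 lies above that of Caprin2, though in control the ranges of mean ± SD overlap, and in control replicate 2 Caprin2 (90.5 CPM per kb) was above Caprin1 (86.9).

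In a list of 39 genes of P-bodies and mRNA decay, 24 had a higher and 15 a lower log2 fold change, with a median of 0.05 (-0.0029 to 0.15 under the alternatives). An unadjusted p-value under 0.05 in edgeR was found for 457 of the 12879 genes tested and for 1 of these 39. This was Tnrc6b, a scaffold of the microRNA silencing complex, with 331 CPM in control and 217 in CKO, or -0.61 on the log2 scale (SE 0.22, adjusted p = 0.9998). Control replicate 2 carried much of this, with 438 CPM against 276 and 280.0 in the other control pools, and the value was -0.34 without it. Lsm5, of the decay complex of Lsm proteins, was next, at 5.06 and 7.40 CPM (0.54 on the log2 scale, and 0.90 without control replicate 3). The balance of the list was 18 higher and 21 lower without control replicate 2, and 34 higher and 5 lower with library totals alone. In 24 stress granule genes the log2 fold changes lay between -0.17 and 0.11, with a median of -0.029 (-0.074 to 0.079 under the alternatives). The smallest unadjusted p-values were those of Pabpc4, a poly(A)-binding protein (94.3 and 102 CPM), and Fmr1, which encodes the fragile X protein (145 and 155 CPM). None of the 24 had an unadjusted p-value under 0.05 in edgeR.

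In 27 genes of mRNA transport and partners of Staufen, among them Upf1 and the kinesins, the median was 0.0078 (-0.0033 to 0.11 under the alternatives), and 0 had an unadjusted p-value under 0.05 in edgeR. The smallest were those of Pura (7.55 and 9.32 CPM) and Dync1h1 (822 and 732 CPM), the dynein heavy chain. Of 35 other RNA-binding proteins 34 were tested, 24 had a higher and 10 a lower log2 fold change, and the median was 0.05 (-0.025 to 0.14 under the alternatives). Without control replicate 2 this turned to 13 higher and 21 lower. Cpeb3, a regulator of poly(A) tails and translation, had 15.2 CPM in control and 8.41 in CKO, or -0.86 on the log2 scale (SE 0.20, adjusted p = 0.663 in edgeR's quasi-likelihood test). Lin28a, which blocks the maturation of let-7, had 3.40 and 2.02 CPM, a log2 fold change of -0.75 (SE 0.25, adjusted p = 0.9998). These 2 genes had the only unadjusted p-values under 0.05 in that list, with a lower level, as 2.24% of all genes tested had. Across the 6 lists edgeR called 0 genes, as it did among all 12879 genes tested.

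A list of 8 mRNAs taken as possible targets of the members had 3 with a higher and 5 with a lower log2 fold change and a median of -0.15 (-0.37 to 0.075 under the alternatives). Hspb1, a small heat shock protein gene linked to Tdrd7, and the ephrin receptor gene Epha3 had 4.66 ± 1.92 and 18.96 ± 5.78 CPM in control. In CKO they had 3.88 ± 2.01 and 21.4 ± 5.78 CPM, and their groups overlapped. Sox2, whose mRNA Rbm24 is known to bind, was at 144 ± 51.7 and 139 ± 34.3 CPM, and is also expressed in retina. The spectrin gene Sptb was at 357, 782 and 308 CPM in control and 336, 286 and 263 CPM in CKO, which is -0.71 on the log2 scale and -0.16 without control replicate 2. The actinin gene Actn2 was at 15.1 ± 7.59 and 12.6 ± 9.13 CPM.

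Dnase2b, the nuclease of fibre denucleation, is linked to Celf1, as are Cdkn1a and Cdkn1b. It had 203, 321 and 135 counts in control and 15, 6 and 9 in CKO, while Celf1 overlapped between the groups. Cdkn1b had a log2 fold change of 0.09 (SE 0.0713). Cdkn1a, which encodes the inhibitor p21, had 9.504, 14.2 and 6.98 CPM in control and 18.2, 19.5 and 18.7 in CKO. Every pool labelled CKO was above every control pool, as was so for 473 of the 12879 genes tested. The log2 fold change of Cdkn1a was 0.88 (SE 0.25, unadjusted p = 0.0103 and adjusted p = 0.967 in edgeR's quasi-likelihood test).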

How the data were processed

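RNA-Seq was made by the authors from polyA RNA of pooled lenses with strand-specific libraries. Reads were aligned to mm10 with TopHat 2.0.13, and the authors deposited raw fragment counts per RefSeq gene from HTSeq 0.6.1, not normalized. The table keeps genes whose mean FPKM (Cuffdiff 2.2.1) exceeded 1 in control or CKO. Counting options for strand and overlaps are not given in the sources used here. The submitters' processing notes also name Trim Galore and DESeq2. Group and replicate numbers came from the sample titles, although the descriptions number the same CKO libraries 2, 3 and 4.

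From these counts, TMM factors and CPM were computed in edgeR 4.0.16 (R 4.3.3) after a filter that kept genes reaching 10 counts in 3 or more libraries, and CKO was compared with control by a robust quasi-likelihood fit with Benjamini-Hochberg adjustment at 0.05. The separate pools make p-values those of the spread between pools. Exact two-sided permutation tests used log2 CPM with an offset of 0.5, or log2 ratios of counts. Alternatives were DESeq2 1.42.0, limma 3.58.1 (voom), other scalings and filters, the replicate number as a block and each library left out. Scaling to crystallins or to other fibre markers, the ratios and the promoter letters were chosen after the data were seen. The members, lists and tests were chosen with earlier results of these data known. The tests were tried on simulated data. Genes named are the members, their paralogues, the lens mRNAs, the 2 genes with the smallest unadjusted p in each other list, and for members whose log2 CPM spanned over 1 the 3 genes of nearest pattern. Positions and exon lengths came from GENCODE M21 and promoter sequences from RefSeq (GRCm38.p6), with Python 3.11.15, pandas 2.3.3 and matplotlib 3.10.9. Qki was found as its synonym. No replicates agreed within sampling noise.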

Additional observations from a re-analysis of the deposited data

How the results depend on the processing

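With 3 pools a group, the spread between pools limits what can be seen. Leaving out single libraries gave log2 fold changes for Caprin2 of -1.61 to -0.78, for Tdrd7 of -1.40 to -0.54, for Celf1 of -0.40 to 0.058, for Rbm24 of -0.63 to 0.12, for Stau1 of -0.022 to 0.046 and for Stau2 of -0.013 to 0.13. Celf1, Rbm24 and Stau2 changed sign without control replicate 2, and Stau1 without CKO replicate 3. Tdrd7, Celf1, Caprin2 and Rbm24 moved most without control replicate 2, Stau2 and Celf2 to Celf6 without control replicate 3, and Actn2 without CKO replicate 2. The unadjusted count was 806 without control replicate 2 and 1234 without control replicate 3. DESeq2 called 85 genes in all, 1 of the 6 members (Caprin2, log2 fold change -1.31) and 1 of the 8 lens mRNAs, Dnase2b (log2 fold change -4.65). Other than with the scalings to lens genes, the adjusted p-value was at least 0.0393 for Caprin2 and at least 0.226 for Tdrd7. Library totals without scaling factors moved the median of all genes by 0.10 on the log2 scale and gave 1 called gene, as did the fit without control replicate 3 (0 to 1 over the libraries left out), and Tdrkh (0.021), Caprin1 (0.087), Rbm20 (0.11) and Sox2 (0.024) changed sign with library totals. Scaling to crystallins moved the median of all genes to 0.68, the called genes to 19 and the called lens mRNAs to 1, and turned Celf1 to 0.57 and Rbm24 to 0.50. Scaling to the other fibre markers moved that median to 0.40, gave 14 called genes and 1 called lens mRNA, and turned Celf1 to 0.29 and Rbm24 to 0.22. In these last fits Tdrd7 was at -0.17 and -0.46 and Caprin2 at -0.39 and -0.68, and 0 members were called. The replicate numbers did not pair the pools: deviations of same-numbered pools correlated by -0.51, 0.09 and 0.48, and control replicate 1 correlated best with CKO replicate 2 (0.58). With the number as a replicate block edgeR called 0 genes (516 against 457 at an unadjusted p under 0.05), with log2 fold changes of -1.19 for Caprin2, -0.97 for Tdrd7, -0.20 for Celf1, -0.29 for Rbm24, 0.0094 for Stau1 and 0.046 for Stau2. Of the paralogues and lens mRNAs, 13 changed sign with a library left out: Actn2 (-0.98 to 0.25), Caprin1 (-0.043 to 0.015), Celf2 (-0.14 to 0.39), Celf3 (-0.18 to 0.55), Celf4 (-0.12 to 0.68), Celf5 (-0.049 to 0.77), Celf6 (-0.10 to 0.72), Epha3 (-0.063 to 0.41), Hspb1 (-0.70 to 0.10), Rbm20 (-0.26 to 0.21), Smn1 (-0.010 to 0.080), Snd1 (-0.019 to 0.099) and Sox2 (-0.28 to 0.24). Tdrd9 was at -0.34 without control replicate 2, against -0.78. The causes of these changes were not tested.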
